A study of Mus musculus with 6 samples.

Results

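The DNA mismatch repair genes MSH3, MSH6, MLH3, PMS1 and PMS2 were followed in 22Rv1, a human prostate cancer cell line known as mismatch-repair-deficient. They are 5 of the 58735 genes in the deposited count table. They were set by gene name and not by their values, but with earlier results of these data known. RNA-Seq covered 3 libraries of parental 22Rv1 cells kept with vehicle and 3 libraries of the BL-B01D1_R subline, derived from the same line by stepwise exposure to BL-B01D1, an antibody-drug conjugate against EGFR and HER3 that carries a topoisomerase I inhibitor. A single resistant subline is described. The 3 libraries of a group were therefore samples of 1 line, and the p-values measure only the spread between such samples, which may be technical. The question put to the data was how much mRNA of each gene the line held, and whether the resistant subline differed in it.

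Mismatch repair corrects base-base mismatches and small insertion or deletion loops that escape the proofreading of replicative polymerases. A MutS heterodimer recognizes the error. It contains either MSH6, which favors mismatches and the smallest loops, or MSH3, which favors larger loops. A MutL heterodimer is then recruited, with PMS2, PMS1 or MLH3 as the variable subunit, of which PMS2 serves as the main repair endonuclease and MLH3 is best known from meiosis. The strand is then removed by the exonuclease EXO1 and rebuilt with RPA, the clamp PCNA with its loader RFC, polymerase delta and ligase I. Cells that lack the pathway accumulate length changes in microsatellites.

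Libraries held between 13821639 and 17251491 counts on genes, so that 3 counts corresponded to at most 0.217 per 1e6 counts of the library total. All CPM given here are counts scaled to a library total of 1e6 with the trimmed mean of M values (TMM). The sample labels name mouse as the organism, whereas all gene identifiers in the table are human. All 8 luminal prostate markers checked had enough counts to be tested, with a summed level of 3177 to 3280 CPM across the 6 libraries. Of the 8, 4 were higher and 3 lower in resistant cells at a false discovery rate (FDR) of less than 0.05. All tested genes gave 17.1% higher and 18.4% lower. When any library other than resistant library 1 was left out, 3 of the 8 were higher and 3 lower. The log2 fold changes of the 8 ran from −0.48 for HOXB13 to 0.91 for KLK3, which had 35 to 98 counts a library. Of 7 markers of other cells, 5 were too low to be tested, CD3E was at 0 in every library, and COL1A1 was detected at a mean of 14.2 ± 1.09 and 11.7 ± 0.56 CPM in parental and resistant cells (SD, n = 3 each). COL1A1 was called lower in resistant cells (log2 fold change −0.28, FDR 0.0348 by edgeR). The call was lost by DESeq2, by limma on FPKM, with no filter on low counts, and without parental library 2 or resistant library 1 or 2. The summed level of these 7 genes was 14.9 to 17.2 CPM in parental and 12.9 to 13.7 CPM in resistant libraries, and the part of this difference in the results was not tested.

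All 5 genes were expressed in both lines, at very unequal levels. MSH6 was the most abundant by counts, with 1989, 1895 and 1574 counts in parental cells against 1650, 1441 and 1671 in resistant cells, libraries 1 to 3 of each given in the order of their numbers as in all such series of values here. MSH3 was the least abundant, with 73, 55 and 69 counts in parental cells against 82, 71 and 75 in resistant cells. Thus both subunits that can complete a MutS heterodimer were present as mRNA, but that of MSH6 dominated in every library.

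To compare levels between genes, CPM were also divided by the gene length in kilobases that the table lists, which gives fragments per kilobase at the same scale (FPKM). In parental cells, the level of PMS2 was 12.3 ± 0.46 FPKM, MSH6 10.4 ± 0.12, PMS1 7.71 ± 0.35, MLH3 2.83 ± 0.090 and MSH3 0.884 ± 0.18 FPKM (SD, n = 3 for each gene). The order was the same in resistant cells, where the respective levels were 13.2 ± 0.42, 9.11 ± 0.23, 7.99 ± 0.26, 3.06 ± 0.11 and 1.02 ± 0.035 FPKM (SD, n = 3). In both groups, no library of one gene overlapped a library of its neighbor in this order. The listed length of MSH6, 10993 bases, is the longest of the 5 and the other lengths ran from 3936 bases for PMS2 to 8363 bases for MLH3, so the place of MSH6 behind PMS2 holds only per length, and by counts MSH6 stood first. MSH3 stood last on both scales. Whether the listed lengths match the transcripts made in these cells was not tested. All orders, percentiles, shares and ratios between genes given per kilobase, here and below, depend on those lengths. Those that involve PMS2 also depend on how reads that fit its partial copies, described below, were assigned.

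Among the 13576 protein-coding genes tested, whose median level was 6.00 FPKM in parental cells, MSH3 lay between percentiles 13.6 and 18.4 over the 6 libraries. MLH3, the mainly meiotic MutL subunit, lay between percentiles 31.9 and 34.9. PMS1, whose role in repair is least defined, lay between 55.7 and 59.4, MSH6 between 61.7 and 65.8 and PMS2 between 69.5 and 73.3. The libraries of each gene thus fell in a narrow band, and the bands of the 5 genes did not meet.

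**Figure D1:**
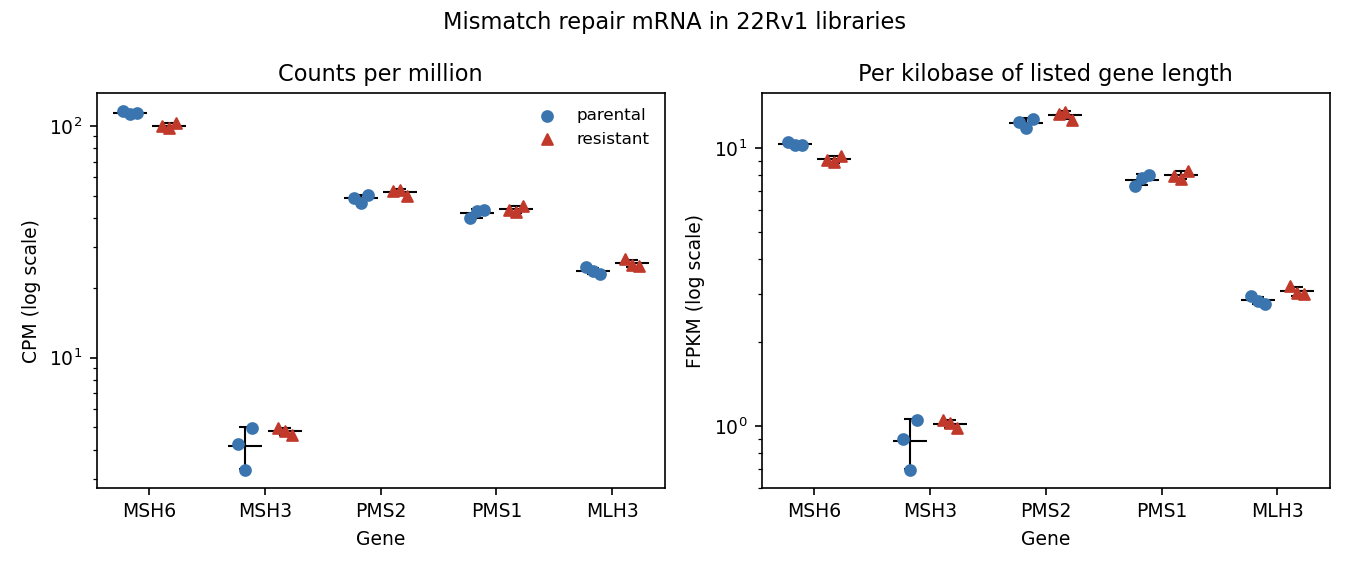
Levels of the 5 genes in each library, as CPM on the left and FPKM on the right, both on log axes. Circles are parental and triangles resistant libraries, and the black bars show mean ± SD of 3 libraries. MSH6 lies lower in all resistant libraries, and MSH3 is the lowest gene on both scales.

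The precision differed with depth. The spread between parental libraries (SD as a percentage of the mean CPM) was 1.17% for MSH6, 3.17% for MLH3, 3.76% for PMS2 and 4.59% for PMS1, where counting alone would give 2.34%, 5.13%, 3.59% and 3.86%. For MSH3 it was 20.4% in parental and 3.42% in resistant libraries, around a counting error of 12.3% and 11.5%. MSH3 is therefore the gene on which the data say least.

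Of the 5 genes, 1 passed edgeR's quasi-likelihood test at an FDR of less than 0.05, which is no more than the table as a whole gave, since 35.5% of the 17142 genes tested passed it. Among the 9957 genes whose mean CPM lay within the range of the 5, 38.9% passed. Lower levels alone were called for 18.4% of tested genes and higher levels for 17.1%.

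The gene that passed was MSH6, the mismatch-binding subunit. Its level was 115, 113 and 113 CPM in parental libraries 1, 2 and 3 and 99.5, 98.0 and 103 CPM in resistant libraries 1, 2 and 3. Every resistant library lay below every parental library, but the groups were apart, in one direction or the other, in 44.8% of tested genes. MSH6 fell by 12.0% in the subline, a log2 fold change of −0.18 (SE 0.040, 95% interval −0.27 to −0.10, FDR 0.00025 from edgeR's test with Benjamini-Hochberg adjustment over all genes). The FDR stayed at 0.00424 or less with each library left out in turn. A change of this size is far from the absolute log2 fold change of 1 that the study's methods require, which 5.37% of tested genes passed together with the FDR and none of the 5 repair genes did.

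The other MutS subunit did not pass the test. MSH3 was at 4.24, 3.28 and 4.97 CPM in parental libraries and 4.95, 4.83 and 4.62 CPM in resistant libraries. The groups overlapped, with the log2 fold change at 0.22 (SE 0.18, 95% interval −0.15 to 0.58, FDR 0.385 from edgeR's test). This interval is the widest of the 5, and a difference of the size seen in MSH6 was not detectable at this depth.

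The MutL subunits did not pass either, and their intervals were narrower. PMS2 was at 49.0, 46.6 and 50.1 CPM in parental libraries and 52.4, 53.0 and 49.9 CPM in resistant libraries, with a log2 fold change of 0.09 (95% interval −0.022 to 0.21, FDR 0.213 by edgeR). PMS1 was at 39.9, 42.8 and 43.5 CPM in parental libraries and 43.3, 42.4 and 45.1 CPM in resistant libraries, with a log2 fold change of 0.05 (95% interval −0.069 to 0.18, FDR 0.533 by edgeR). For both genes the libraries of the groups overlapped.

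MLH3 was at 24.5, 23.6 and 23.0 CPM in parental libraries and 26.6, 25.2 and 25.0 CPM in resistant libraries. All resistant libraries lay above all parental ones. In 44.8% of tested genes the groups were likewise apart, in one direction or the other. Its log2 fold change of 0.11 (95% interval −0.045 to 0.26) did not pass edgeR's test, with an FDR of 0.285. Over the 5 genes the median was 0.09, beside 0.0038 over all genes tested.

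**Figure D2:**
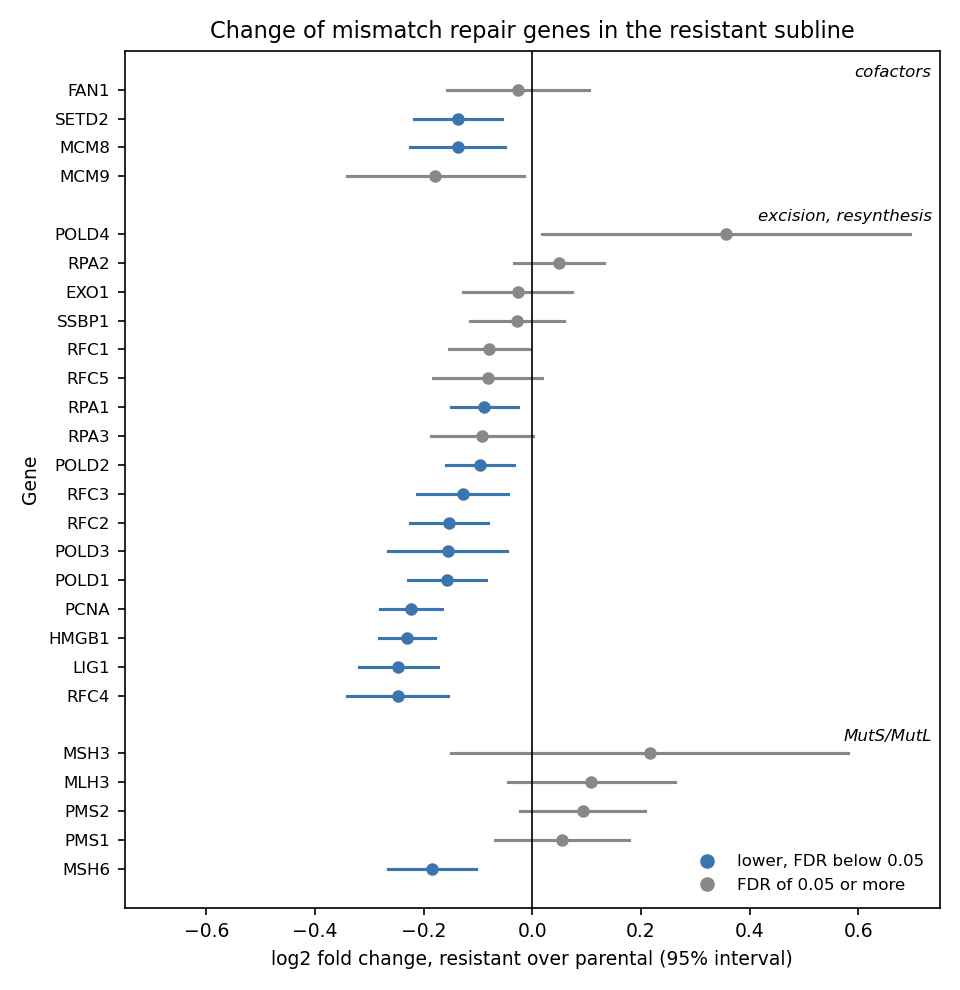
Log2 fold change of resistant over parental cells with its 95% interval from edgeR, for the 5 MutS and MutL genes, 17 genes of excision and resynthesis and 4 cofactors. Blue marks an FDR of less than 0.05, all of it left of 0, and MSH6 is the only blue gene of the lowest block.

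Ratios within a library do not depend on how library sizes are scaled. Of the counts per kilobase summed over the 5 genes, MSH6 made up 30.4 ± 0.65% (SD, n = 3) in parental and 26.5 ± 0.68% (SD, n = 3) in resistant libraries, without overlap (two-sided exact permutation p = 0.1, below which 3 libraries against 3 cannot go, and 0.167 when adjusted over the 5 shares). The share of PMS2 was 36.2 ± 0.69% and 38.3 ± 1.23% (SD, n = 3; exact permutation p = 0.1, adjusted 0.167), again without overlap. The share of MLH3 was 8.31 ± 0.37% and 8.91 ± 0.27% (SD, n = 3; exact permutation p = 0.1, adjusted 0.167), also apart. PMS1 and MSH3 overlapped between the groups, with exact permutation p = 0.5 and 0.3. The 5 shares sum to 100% in each library, so a lower share of one raises the others.

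The mRNA levels of the competing MutS subunits were compared as a ratio. The counts do not measure their protein. Counts per kilobase of MSH6 exceeded those of MSH3 by 11.7-, 14.8- and 9.77-fold in parental libraries 1, 2 and 3 and by 8.62-, 8.69- and 9.54-fold in resistant libraries 1, 2 and 3. The highest resistant ratio lay just under the lowest parental one, and the difference on the log2 scale was −0.41 (two-sided exact permutation p = 0.1, again at the limit of the design, and 0.3 when adjusted over 3 ratios). With each library left out in turn this difference ranged from −0.55 to −0.26, the value nearest 0 being that without parental library 2, which had the fewest MSH3 counts. PMS2 exceeded PMS1 by 1.51- to 1.74-fold and MLH3 by 4.18- to 4.64-fold over the 6 libraries. Neither ratio separated the groups (two-sided exact permutation p = 0.7 and 0.6, both 0.7 when adjusted).

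The position of these genes bears on their counts, since the sources used here do not state whether counting used strand. MSH3 (ENSG00000113318) lies on the forward strand of chromosome 5 of hg38, from 80654648 to 80876460. PMS1 (ENSG00000064933; chromosome 2, forward, 189784085 to 189877629) starts 286 bases from ORMDL1, a regulator of sphingolipid synthesis on the opposite strand, and both genes share 287 bases there. PMS2 (ENSG00000122512; chromosome 7, reverse, 5973239 to 6009125) starts 120 bases from AIMP2, a scaffold protein of the aminoacyl-tRNA synthetase complex, without overlap. PMS1 and PMS2 thus each form a head-to-head pair, and the level of the partner is given beside that of the repair gene.

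ORMDL1 was at 16.2, 15.98 and 15.2 FPKM in parental libraries and 16.5, 16.2 and 15.5 FPKM in resistant libraries. AIMP2 was at 36.2, 36.6 and 38.0 FPKM in parental libraries and 37.1, 35.3 and 34.4 FPKM in resistant libraries. The groups overlapped for both. ORMDL1 exceeded PMS1 by 1.87- to 2.22-fold and AIMP2 exceeded PMS2 by 2.62- to 3.09-fold. Neither ORMDL1 nor AIMP2 passed the test, with log2 fold changes of 0.02 and −0.05 (FDR 0.803 and 0.474 by edgeR). The intervals of the log2 fold change, −0.083 to 0.12 and −0.15 to 0.05, were about as wide as those of PMS1 and PMS2 and held 0 as theirs did.

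**Figure D3:**
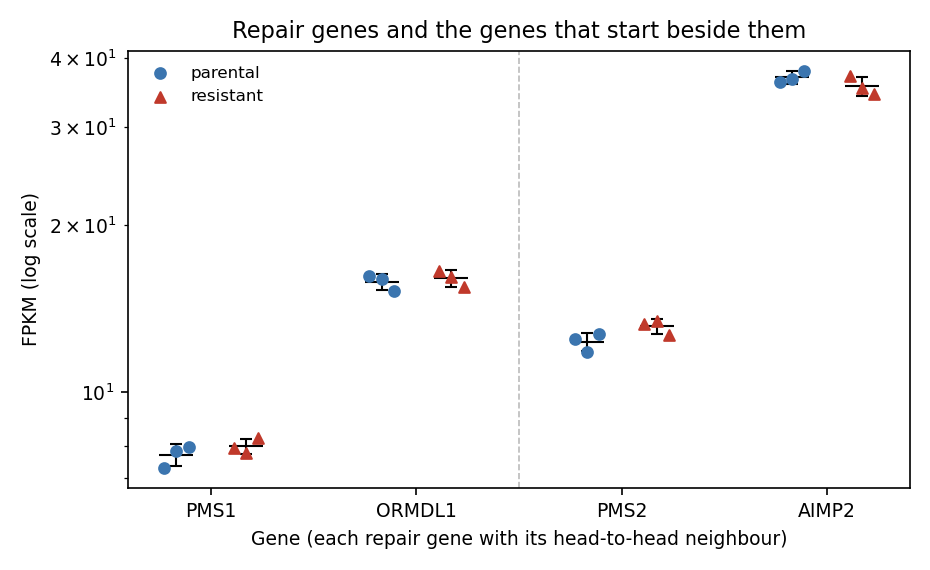
FPKM on a log axis for PMS1 and PMS2, each beside the gene that starts within 286 bases of it on the opposite strand. Circles are parental and triangles resistant libraries, and bars show mean ± SD of 3 libraries. Each partner lies above its repair gene in all 6 libraries, by at most 3.09-fold.

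MSH6 (ENSG00000116062; chromosome 2, forward, 47695530 to 47810101) overlaps FBXO11, an F-box gene of protein degradation on the opposite strand, over 20786 bases. FBXO11 had means of 18.8 ± 1.09 and 17.8 ± 0.88 CPM in parental and resistant cells (SD, n = 3 each) and did not pass the test (log2 fold change −0.08, FDR 0.51 by edgeR). Without strand, reads from the shared part cannot be told apart. MLH3 (ENSG00000119684; chromosome 14, reverse, 75013764 to 75051532) overlapped only a small nuclear RNA gene that had at most a single count in a library.

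PMS2 has many partial copies on chromosome 7, and reads that fit both cannot be assigned with certainty. The table lists 11 such pseudogenes, of which 9 had a count and 6 could be tested. Their counts made up 50.6% to 55.2% of the sum of PMS2 and pseudogene counts in each library. The most abundant were PMS2P1 with 24.3 ± 1.61, PMS2CL with 13.9 ± 2.10 and PMS2P3 with 8.41 ± 1.26 CPM in parental cells (SD, n = 3 each). By edgeR, their log2 fold changes ran from −0.50 to 0.47, and the smallest unadjusted p of the 6, that of PMS2P3, was 0.132. The level of PMS2 is uncertain to the extent that reads were split between it and these copies.

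Of the meiotic MutS homologs, 1 of 2 had enough counts for a test. MSH5 was tested, at means of 9.22 ± 1.16 and 9.91 ± 0.59 CPM in parental and resistant cells (SD, n = 3 each), with a log2 fold change of 0.11 (FDR 0.547 by edgeR). MSH4 had 2, 3 and 1 counts in parental and 2, 8 and 9 counts in resistant libraries and was not tested. No fold is given for it at this depth.

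Among the genes that act after recognition, all that passed the test were lower. Of 17 genes of excision and resynthesis, 10 were lower in resistant cells by edgeR at an FDR of less than 0.05, 0 were higher and 7 did not pass, against 18.4% of all tested genes called lower. At an unadjusted p of less than 0.05, 1 was higher (POLD4), and DESeq2 and limma also called 0 higher. Without resistant library 3 the number lower was 6, and it was 8 to 11 without any other library and by the other methods, with 1 gene higher without parental library 1. The 17 genes had a median log2 fold change of −0.096. Their median level in parental cells was 29.2 FPKM, against 6.00 FPKM over the protein-coding genes tested. All 10 stayed within a log2 fold change of 0.25 of no change. The list was written with earlier results of these data known.

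The 4 largest of these falls were in RFC4, LIG1, HMGB1 and PCNA. LIG1, which seals the repaired strand, was at 168, 181 and 176 CPM in parental libraries and 151, 146 and 146 CPM in resistant libraries, a log2 fold change of −0.25 (SE 0.036, FDR 4.19e-07 by edgeR). PCNA, the sliding clamp, was at 513, 491 and 485 CPM in parental and 434, 427 and 415 CPM in resistant libraries, a log2 fold change of −0.22 (SE 0.028, FDR 1.74e-08 by edgeR). In both genes the groups were fully apart, as they were in 44.8% of all tested genes.

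RFC4, a subunit of the clamp loader, fell by 15.8% (log2 fold change −0.25, FDR 3.17e-05 by edgeR). Its partner RFC2 had a log2 fold change of −0.15 and RFC3 one of −0.13, and both were called lower. RFC1, the large subunit, and RFC5 did not pass, at −0.08 each. HMGB1, a chromatin protein that can assist excision, fell by 14.8% (log2 fold change −0.23, FDR 8.6e-10 by edgeR).

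The catalytic subunit of polymerase delta, POLD1, had a log2 fold change of −0.16 (FDR 0.000477 by edgeR). The accessory subunits POLD2 and POLD3 were also lower, at −0.10 and −0.16. POLD4, the smallest subunit, did not pass at 0.36 (95% interval 0.017 to 0.70, FDR 0.0962 by edgeR), from between 66 and 130 counts a library. Of the single-strand binding protein, RPA1 and RPA3 both had a log2 fold change of −0.09. RPA1 was called lower (SE 0.031) and RPA3, with a larger SE of 0.046, did not pass. RPA2 did not pass either, at 0.05.

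EXO1, the exonuclease of the pathway, showed no called change. It was at 65.2, 69.3 and 68.9 CPM in parental libraries and 66.9, 68.6 and 64.1 CPM in resistant libraries. The groups overlapped, and the log2 fold change of −0.03 had a 95% interval from −0.13 to 0.074 (FDR 0.728 by edgeR). SSBP1, a mitochondrial single-strand binding protein, did not pass either, at −0.03.

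Of 4 cofactors, 2 were lower, a direction called in 18.4% of all tested genes. SETD2, the histone methyltransferase that lays down the H3K36 mark bound by MSH6, was at 112, 113 and 115 CPM in parental libraries and 102, 106 and 102 CPM in resistant libraries (log2 fold change −0.14, FDR 0.0058 by edgeR). The helicase MCM8 had a log2 fold change of −0.14 (FDR 0.0105). Only 1 of the 4 was lower without parental library 3, without resistant library 2 or with limma on FPKM. MCM9 and the nuclease FAN1 did not pass, at −0.18 (FDR 0.0811) and −0.03 (FDR 0.8).

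Replication and proliferation genes stood beside this pattern. Of 16 tested, 13 were lower in resistant cells by edgeR and 0 were higher, where all tested genes gave 18.4% lower and 17.1% higher. The number higher was also 0 by DESeq2 and limma, and at an unadjusted p of less than 0.05. The median log2 fold change was −0.20. In parental cells the 16 genes had a median of 49.1 FPKM, against 6.00 FPKM over the protein-coding genes tested. Without parental library 1, 1 of the 16 was higher. The 13 lower genes included MKI67, the antigen of cycling cells (−0.23), the cyclin CCNA2 (−0.33) and the helicase subunit MCM5 (−0.29). The summed level of the 16 was 4971 to 5049 CPM in parental and 4385 to 4407 CPM in resistant libraries. The part of this difference in the lower level of MSH6 and of the excision genes was not tested. In bulk RNA, fewer cells of a kind and less RNA per cell cannot be told apart.

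Genes of other repair pathways were compared on the same terms. Of 17 base excision repair genes tested, 5 were lower and 3 higher, around a median of −0.03, where all tested genes gave 18.4% lower and 17.1% higher. UNG, the uracil glycosylase, had the smallest FDR among them (log2 fold change −0.18, FDR 1.36e-05 by edgeR), and NEIL1 and NEIL2 were higher at 0.27 and 0.24. The number higher was at most 2 with any library left out and 0 without parental library 2 or resistant library 1 and by DESeq2. Of 17 nucleotide excision repair genes tested, 1 was lower and 4 were higher, with a median of 0.0049. Among them were DDB1 at 0.11 and GTF2H2 at 0.38, which has near-identical copies. The number higher was 2 without resistant library 2 and with limma on FPKM, and the single lower call, RAD23B, was lost without parental library 1 or 3 or resistant library 2 or 3 (0 lower in each of these fits, and also with no filter on low counts or with protein-coding genes only). Whether the lists differ from each other was not tested.

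**Figure D4:**
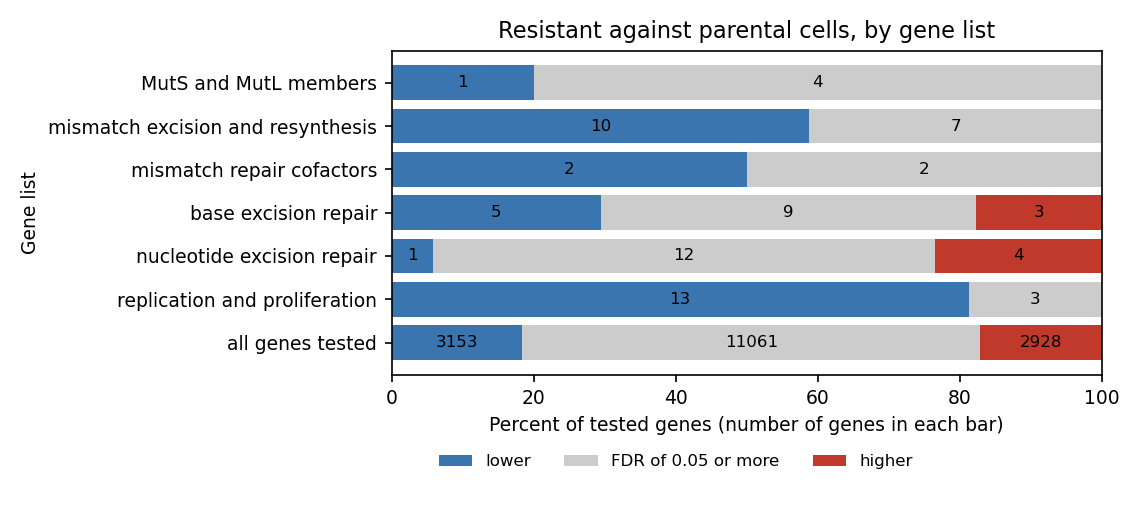
Share of tested genes in each list that were lower, higher or past neither at an FDR of 0.05 by edgeR, with the number of genes in each bar. The bars for excision and resynthesis (10 of 17) and for replication and proliferation (13 of 16) hold the widest blue parts, and the bar for all 17142 genes gives the background.

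Genes known to carry coding microsatellites that mutate in mismatch-repair-deficient tumors were listed as well. Of 12, 10 could be tested, of which 3 were higher and 2 lower by edgeR, beside 17.1% and 18.4% of all tested genes. TGFBR2, a receptor of TGF-beta, was the only one past an absolute log2 fold change of 1, at 1.39, 1.19 and 1.23 CPM in parental and 3.8, 2.79 and 2.46 CPM in resistant libraries (log2 fold change 1.24, SE 0.27, FDR 0.000238). RPL22 and TAF1B were higher at 0.22 and 0.27. The proapoptotic gene BAX was lower at −0.26, and SEC63 at −0.13, the number lower being 1 without parental library 2 or resistant library 3 and by DESeq2 or limma on FPKM. The number higher was 2 without parental library 2 and with limma on FPKM. CASP5 and AIM2 had no count in any library. The counts hold no sequence, so the length of these repeats was not measured.

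By the shape of its levels over the 6 libraries, MSH6 was most like RFC4 and HMGB1 among 25 other mismatch repair genes (Pearson's r of log2 CPM 0.98 and 0.93). Over 13575 protein-coding genes its nearest were SRMS, N4BP2 and CHPF (r of 0.999, 0.998 and 0.997), which were lower in resistant cells at log2 fold changes of −1.19, −0.51 and −0.35. MSH3 was nearest to PMS2 (r of 0.87), and MLH3 was also nearest to PMS2 (r of 0.64). PMS1 was nearest to RPA2 (r of 0.63). The 6 points fall into the 2 lines and share their libraries' depth, so these values are descriptions and carry no test.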

How the data were processed

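RNA was purified with oligo-dT and sequenced on an Illumina NovaSeq instrument. Per the labels and methods, the authors used fastp, HISAT2 2.0.5 on hg38 and featureCounts 1.5.0-p3, and deposited raw counts per gene, which are not normalized. They list gene length in bases as another quantity. The annotation release and the use of strand are not given in the sources used here. Columns were matched to samples by line and number.

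From the counts, filterByExpr kept 17142 genes. Groups were compared with edgeR 4.0.16 (quasi-likelihood, TMM, R 4.3.3). The SE is the log2 fold change over the square root of F. FPKM were computed from TMM-scaled CPM and the listed length. Likeness used log2 CPM with a prior count of 2. Ratios and shares were compared by exact permutation. Scripts were tested on simulated data.

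Alternatives were limma-voom and limma on log2(FPKM + 1) (3.58.1), DESeq2 1.42.0, library size alone, upper quartile, no filter, 10 counts in every library, protein-coding genes only, the replicate block and each library left out. The 5 genes were set by name, not by their values, but they and the lists were chosen with earlier results of these data known. Named genes are the 5 members, genes overlapping or starting within 2000 bases of them, and all genes of lists of 4 or fewer. Up to 8 called genes of a list are also named, not always those with the smallest FDR. The 3 most abundant PMS2 pseudogenes and the nearest genes by Pearson's r are named too. The other genes of excision and resynthesis, CASP5, AIM2 and CD3E were named after their values were seen. Some genes are not reported here, and no human sequence was used.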

Additional observations from a re-analysis of the deposited data

How the results depend on the processing

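MSH6 stayed lower and the other 4 genes stayed short of an FDR of 0.05 under all 9 alternatives and all 6 fits without a library. The log2 fold change of MSH6 ranged from −0.2046 without resistant replicate 3 to −0.1681 with limma on log2(FPKM + 1), where its FDR was 0.0133, and that of MSH3 from 0.066 to 0.35 with a library left out. Over all genes, the counts past both thresholds, 434 higher and 487 lower, were 248 and 287 with at least 10 counts in every library and 116 and 64 with limma on log2(FPKM + 1). The cause of this shift was not tested. With the replicate block, MSH6 was at −0.19 (FDR 0.000664) and 418 and 471 genes passed both thresholds. Same-numbered libraries did not deviate together (Pearson's r of −0.0081, −0.020 and −0.016 across genes). These values gave no sign of pairing by number, but they cannot show how the samples were handled. The block changed no call among the 5 genes. The PMS2 to PMS1 and PMS2 to MLH3 differences, 0.039 and −0.018, lay on both sides of 0 across settings. Depth limits MSH3 most, at 55 to 82 counts a library.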
